A study of Mus musculus with 6 samples.

Results

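The glucocorticoid receptor gene Nr3c1 and 8 genes that glucocorticoids are known to induce (Fkbp5, Zbtb16, Tsc22d3, Sgk1, Mt1, Mt2, Klf9 and Klf15) were followed in left ventricular myocardium of mice on day 9 of pressure overload by transverse aortic constriction (TAC), surgery that narrows the aortic arch. The members were taken by symbol, and all 9 were found among the 47729 gene IDs of the table and among the 17365 genes with enough counts to test. Zbtb16 was chosen by its own CPM values in these libraries, high in Treg and low in control, so its values are given as a description with no test. The other 8 were listed for their known place in the pathway, with earlier results of these data known. In all, 6 bulk RNA sequencing libraries were compared, 3 labelled control and 3 labelled Treg, all from operated hearts and all from tissue labelled as cardiomyocytes with other cells. The series title describes CD28-deprived regulatory T cells, induced in vitro and given systemically. The sources used here do not give what the control mice received, nor strain, age or sex. No label says whether the libraries of a group come from separate animals, so the p-values measure only the spread among them, which may be technical.

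As background, cortisol or corticosterone enters the cell and binds the receptor encoded by Nr3c1, which waits in the cytoplasm in a complex of heat shock protein 90 and its cochaperones. The receptor then moves to the nucleus, binds DNA at short palindromes called glucocorticoid response elements, and raises the transcription of feedback inhibitors, anti-inflammatory proteins and metabolic regulators. Heart muscle carries this receptor and the related mineralocorticoid receptor, which binds the same hormones, and glucocorticoid signalling is known to act on cardiomyocyte metabolism and contraction.

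Levels are given as CPM, the count of a gene scaled to the effective size of its library. Library totals lay between 28937253 and 29979080 counts. Myh6, the adult ventricular myosin, stood at 12476 to 24086 CPM, and Myl7, the atrial light chain, was at 1 to 6 counts in 5 libraries and at 1202 in Treg replicate 3. The list of 5 atrial markers, Myl7 included, did not follow Myl7. Its sum was 1437, 805 and 229 CPM in control replicates 1 to 3 and 582, 641 and 1018 CPM in Treg replicates 1 to 3. Control replicate 3 stood apart: it was the highest of the 6 libraries at 33.3% of all genes tested and lay over 2-fold above every other library at 2.43% of them, against 0.0230% to 0.311% for the other libraries. It also had the highest summed level of the 6 neutrophil markers (35.5 CPM, against 6.60 to 18.2 elsewhere), and the lowest of the 8 cardiomyocyte markers (34567 CPM, against 42684 to 57629) and of the 5 erythroid genes (292 CPM, against 1073 to 2849). The summed T and NK cell markers reached 15.8 CPM there against 1.30 to 3.37 elsewhere, nearly all of it Cd3e, at 465 counts, with Trac and Cd3g at 0 and Cd3d at 3 in that library. In bulk tissue, fewer cells of a type and less RNA per cell cannot be told apart. The part of these differences in the results below was not tested, and values are given without control replicate 3 where leaving it out moved them most.

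Promoter sequence from RefSeq (GRCm38.p6, 250 bases before to 50 after an annotated start) was found for 7 of the 9 members, in 14 windows. It is shown for 4 windows: those of the 3 members that were high in control replicate 3 and hold a known hormone or metal motif, and that of Klf15. The textbook palindrome, AGAACA and TGTTCT with any 3 bases between them, searched on both strands, occurred in 3 of 32817 mouse windows (0.00914%), and 1 of these was the window at an alternative start of Sgk1, chr10:21993640-21993939 on the plus strand, where the palindrome is in capitals.
Sgk1: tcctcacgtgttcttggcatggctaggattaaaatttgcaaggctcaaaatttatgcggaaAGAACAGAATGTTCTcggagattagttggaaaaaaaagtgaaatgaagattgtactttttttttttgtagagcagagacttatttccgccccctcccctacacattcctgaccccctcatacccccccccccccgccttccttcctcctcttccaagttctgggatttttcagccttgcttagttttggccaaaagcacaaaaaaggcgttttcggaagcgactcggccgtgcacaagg
Mt2 and Mt1 lie next to each other on chromosome 8 with 5513 bases between them. Their windows, chr8:94172368-94172667 and chr8:94178839-94179138 on the plus strand, hold cores of the metal response element, through which zinc and other metals act on metallothionein genes. The capitals mark TGCACNC and TGCGCNC on either strand, present in 12.6% and 15.4% of all windows. The Mt2 window holds 2 and 2 of them and the Mt1 window 2 and 1. Among the other member windows, 1 copy of TGCGCNC occurred in that of Klf15, not marked below, and 1 in an Sgk1 window not shown.
Mt2: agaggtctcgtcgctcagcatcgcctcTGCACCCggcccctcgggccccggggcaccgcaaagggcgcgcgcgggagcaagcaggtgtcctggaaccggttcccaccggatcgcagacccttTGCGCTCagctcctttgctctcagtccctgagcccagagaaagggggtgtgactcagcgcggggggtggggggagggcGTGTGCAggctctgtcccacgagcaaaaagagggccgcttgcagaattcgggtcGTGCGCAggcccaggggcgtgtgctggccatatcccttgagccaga
Mt1: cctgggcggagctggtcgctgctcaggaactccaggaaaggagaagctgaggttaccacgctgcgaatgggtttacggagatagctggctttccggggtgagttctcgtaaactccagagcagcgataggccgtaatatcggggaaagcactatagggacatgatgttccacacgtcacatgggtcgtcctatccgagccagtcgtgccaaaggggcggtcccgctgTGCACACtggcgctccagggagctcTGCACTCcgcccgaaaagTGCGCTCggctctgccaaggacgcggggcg
The Klf15 window, chr6:90462326-90462625 on the plus strand, holds 3 copies of CACGTG, the E-box bound by clock factors and other factors of the bHLH class, marked in capitals; this motif was added after the window was seen. At least 3 copies occurred in 0.0884% of windows, and at least 1 in 7.15%. The Fkbp5 window and the Sgk1 window shown above held 1 copy each, not marked.
Klf15: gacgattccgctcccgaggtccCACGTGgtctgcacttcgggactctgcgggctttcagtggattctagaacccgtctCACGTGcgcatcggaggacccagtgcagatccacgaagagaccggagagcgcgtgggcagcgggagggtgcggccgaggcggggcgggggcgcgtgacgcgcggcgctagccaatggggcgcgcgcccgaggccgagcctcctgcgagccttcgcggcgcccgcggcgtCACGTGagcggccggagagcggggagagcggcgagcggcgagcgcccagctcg
The single arm TGTTCT, which is part of the palindrome and was also counted inside it, was present in 19.0% of all windows. Among the members it was found in 3 of the 6 Sgk1 windows and 1 of the 3 Tsc22d3 windows. It was absent from the windows of Fkbp5, Klf9, Klf15, Mt1 and Mt2. These are matches of letters, not measured binding sites.

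The receptor gene itself was somewhat higher in each Treg library. Nr3c1 (GRCm38, as for all positions, chromosome 18, 39410545 to 39519421, minus strand) stood at 84.2, 74.1 and 73.9 CPM in control replicates 1 to 3 and at 97.0, 84.6 and 97.1 CPM in Treg replicates 1 to 3. The groups did not overlap, but the lowest Treg library and the highest control library lay next to each other. The means were 77.4 ± 5.88 and 92.9 ± 7.21 CPM (SD, n = 3 in each group, as throughout), and the log2 fold change (Treg over control) was 0.26 ± 0.12 (SE), with an adjusted p of 0.333 by edgeR's quasi-likelihood test over all genes. It was 0.23 to 0.34 when each library was left out in turn.

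The mineralocorticoid receptor gene Nr3c2 differed more. It stood at 9.26, 7.74 and 6.53 CPM in the controls and at 14.5, 16.4 and 14.2 CPM in the Treg libraries, well apart. The log2 fold change was 0.94 ± 0.17 with edgeR's adjusted p = 0.116; without control replicate 3 it was 0.82 (edgeR adjusted p = 0.0422), and DESeq2 gave an adjusted p of 8.57e-04. Hsd11b1, the enzyme that regenerates active glucocorticoid inside cells, stood at 3.58 and 4.60 CPM in control replicates 1 and 2, at 16.9 in control replicate 3, and at 7.52, 11.4 and 7.35 in Treg. The 6-library log2 fold change of Hsd11b1 was 0.063 ± 0.56, and 1.09 without control replicate 3 (edgeR adjusted p = 0.963 and 0.0749). Hsd11b2, the enzyme that inactivates the hormone in mineralocorticoid target tissue, was at 2 to 8 counts, too few to test. Of the 8 genes listed for receptors and hormone access, 7 were tested, and every log2 fold change was positive (median 0.15, against −0.019 over all genes tested). By edgeR 0 of the 7 passed the adjusted threshold of 0.05, as did 0 of all genes, and 1, Nr3c2, had an unadjusted p under 0.05, where 8.23% of all genes did with higher levels in Treg and 8.31% with lower. Without control replicate 3 the median of the 7 was 0.43, and 4 were higher at an unadjusted p under 0.05, against 9.74% of all genes. The adjusted threshold was then passed by 1, Nr3c2, and by 1.3% of all genes. The enzymes of corticosteroid synthesis were close to absent. Cyp11b1 and Cyp11b2 had 0 counts in every library, which does not exclude an expected count of up to about 3 in a library. On that list 1 gene of the 7, the cholesterol carrier gene Star, could be tested.

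The cochaperones that compete for the receptor complex had fold changes of opposite sign. Fkbp5 encodes FKBP51, which lowers the receptor's affinity for hormone and is itself induced by the receptor, while Fkbp4 encodes FKBP52, which favours its transport to the nucleus. Fkbp5 (chromosome 17, 28399094 to 28517527, minus strand) stood at 53.0, 54.8 and 109.8 CPM in the controls and at 40.8, 50.9 and 40.0 CPM in the Treg libraries. Every Treg library lay below every control, by a small margin against control replicates 1 and 2. Gm22146, a small RNA gene on the opposite strand, lies within Fkbp5, and how reads there were counted is not known. The log2 fold change of Fkbp5 was −0.72 ± 0.29 (edgeR adjusted p = 0.287) and −0.30 without control replicate 3 (edgeR adjusted p = 0.274). Fkbp4 stood at 63.8, 79.8 and 64.1 CPM in the controls and at 151.6, 136.4 and 138.0 CPM in the Treg libraries, with no overlap and little spread in either group. Its log2 fold change was 1.04 ± 0.14 with edgeR's adjusted p = 0.0871, and 0.98 without control replicate 3 (edgeR adjusted p = 0.0294); DESeq2 gave 6.41e-08. Within a library, the ratio of Fkbp4 to Fkbp5 was 1.21, 1.46 and 0.584 in the controls and 3.72, 2.68 and 3.45 in the Treg libraries. Every Treg ratio exceeded every control ratio for 41.5% of all genes set over Fkbp5.

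Of the other chaperones of the complex, 1, Ppid, had an unadjusted p under 0.05 by edgeR. Hsp90ab1, the constitutive heat shock protein 90, had a log2 fold change of 0.20 and Hsp90aa1, the inducible form, 0.0078 (edgeR adjusted p = 0.567 and 0.991). Ppid, the cochaperone cyclophilin 40, averaged 31.2 ± 8.86 and 45.9 ± 3.32 CPM (0.56, edgeR adjusted p = 0.277). Hspa1a and Hspa1b, the stress-induced HSP70 genes, were near-identical copies and so are uncertain as single genes; both were high in Treg replicate 3 alone, at 49.5 and 55.2 CPM against 3.50 to 9.56 and 4.19 to 9.49 elsewhere. The 15 chaperone genes had a median of 0.16, with 2 at an unadjusted p under 0.05 (both higher, against 8.23% of all genes). By edgeR 0 passed the adjusted threshold (1, Fkbp4, by DESeq2, against 3.74% of all genes). Treg replicate 3 was the highest library for 9 of the 15 (60.0%, against 10.7% of all genes), and without it the median was 0.016. Among the 13 tested FKBP family genes other than Fkbp5, Fkbp4 included, 11 had a fold change below 0 (median −0.19), as did 9038 of all 17365 genes tested. Fkbp1a, whose protein binds the ryanodine receptor, averaged 171.8 ± 19.5 and 123.6 ± 5.60 CPM (−0.47, edgeR adjusted p = 0.204). Fkbp10, a collagen chaperone, averaged 40.5 ± 18.6 and 22.3 ± 6.13 CPM with overlap (−0.86, edgeR adjusted p = 0.285, and −0.43 without control replicate 3). Nuclear receptor coregulators (13 genes) had a median of 0.030, and of 0.19 without control replicate 3. At an unadjusted p under 0.05, 2 and 3 of these coregulator genes were higher, against 8.23% and 9.74% of all genes. Among them were Ppargc1a, a coactivator of mitochondrial genes, at 61.3 ± 7.46 and 104.5 ± 34.2 CPM (0.77, edgeR adjusted p = 0.218), and Ep300, an acetyltransferase, at 0.35 (edgeR adjusted p = 0.300).

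Among the targets, Zbtb16 and Tsc22d3 were highest in the Treg libraries. Zbtb16 encodes PLZF, a BTB zinc finger repressor that glucocorticoids strongly induce in many cells (chromosome 9, 48654297 to 48836222, minus strand). It stood at 36.6, 43.5 and 81.6 CPM in the controls and at 99.4, 104.8 and 95.5 CPM in the Treg libraries. The Treg libraries lay close together, control replicates 1 and 2 well below them and control replicate 3 in between. The means were 53.9 ± 24.3 and 99.9 ± 4.67 CPM, with a log2 fold change of 0.89 ± 0.29, and of 1.32 ± 0.12 without control replicate 3 (0.69 to 1.32 over the omissions of each library). PLZF also marks innate-like lymphocytes; of genes those cells carry, Gata3 had 1, 1 and 2 counts in control and 6, 5 and 4 in Treg, Klrb1c had 0, 0 and 1 and then 3, 1 and 5, and Cd3d had 0 to 3 counts in every library, where Zbtb16 was at 1043 to 3042. The summed level of the 6 markers listed for those cells was 39.8 to 43.5 CPM in control and 38.5 to 42.6 in Treg. Gata3 is on that list but adds very little to the sum, which rests on its other genes, and Klrb1c and Cd3d are not on it. Of the 4 markers tested, 2 had a fold change above 0 and 2 below. The part of such cells in the Zbtb16 values was not tested.

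Tsc22d3 encodes GILZ, the glucocorticoid-induced leucine zipper that blocks inflammatory transcription factors (chromosome X, 140539528 to 140600659, minus strand). It stood at 84.7, 60.4 and 102.0 CPM in the controls and at 130.3, 156.4 and 106.6 CPM in the Treg libraries, without overlap but with control replicate 3 close to Treg replicate 3. The means were 82.3 ± 20.9 and 131.1 ± 24.9 CPM and the log2 fold change 0.67 ± 0.23 (edgeR adjusted p = 0.243), or 0.85 ± 0.21 without control replicate 3 (edgeR adjusted p = 0.0951). The other TSC22 genes, Tsc22d1, Tsc22d2 and Tsc22d4, had 0.38, −0.041 and 0.13.

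Sgk1, Mt1 and Mt2 were high in control replicate 3 alone. Sgk1, a kinase that raises sodium uptake and is induced through both corticosteroid receptors (chromosome 10, 21882184 to 21999903, plus strand), stood at 44.7, 42.1 and 147.3 CPM in the controls and at 54.4, 66.2 and 39.5 CPM in the Treg libraries. The other 5 libraries spanned 39.5 to 66.2 CPM, and control replicate 3 lay 2.22 times above the highest of them. The log2 fold change of Sgk1 was −0.55 ± 0.49 (edgeR adjusted p = 0.576) and 0.30 ± 0.20 without that library (edgeR adjusted p = 0.488). Mt1 and Mt2 encode the metallothioneins, small cysteine-rich proteins that bind zinc and copper and are induced by metals, stress and glucocorticoids. Mt1 (chromosome 8, 94179082 to 94180327, plus strand) stood at 88.7, 77.6 and 303.6 CPM in the controls and at 86.4, 84.3 and 88.5 CPM in the Treg libraries. Mt2 (chromosome 8, 94172664 to 94173568, plus strand) stood at 35.2, 36.5 and 317.2 CPM in the controls and at 35.0, 24.5 and 39.2 CPM in the Treg libraries. For both genes 5 libraries were close together, and control replicate 3 lay 3.42 times above the highest of them for Mt1 and 8.10 times for Mt2. The log2 fold changes of −0.86 ± 0.49 and −1.98 ± 0.84 (edgeR adjusted p = 0.413 and 0.299) became 0.055 ± 0.11 and −0.12 ± 0.19 without that library (edgeR adjusted p = 0.842 and 0.779). The ratio of Mt2 to Mt1 within a library was 0.291 to 0.471 in 5 libraries and 1.04 in control replicate 3. In each of these genes the group difference thus rested on that library.

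**Figure D1:**
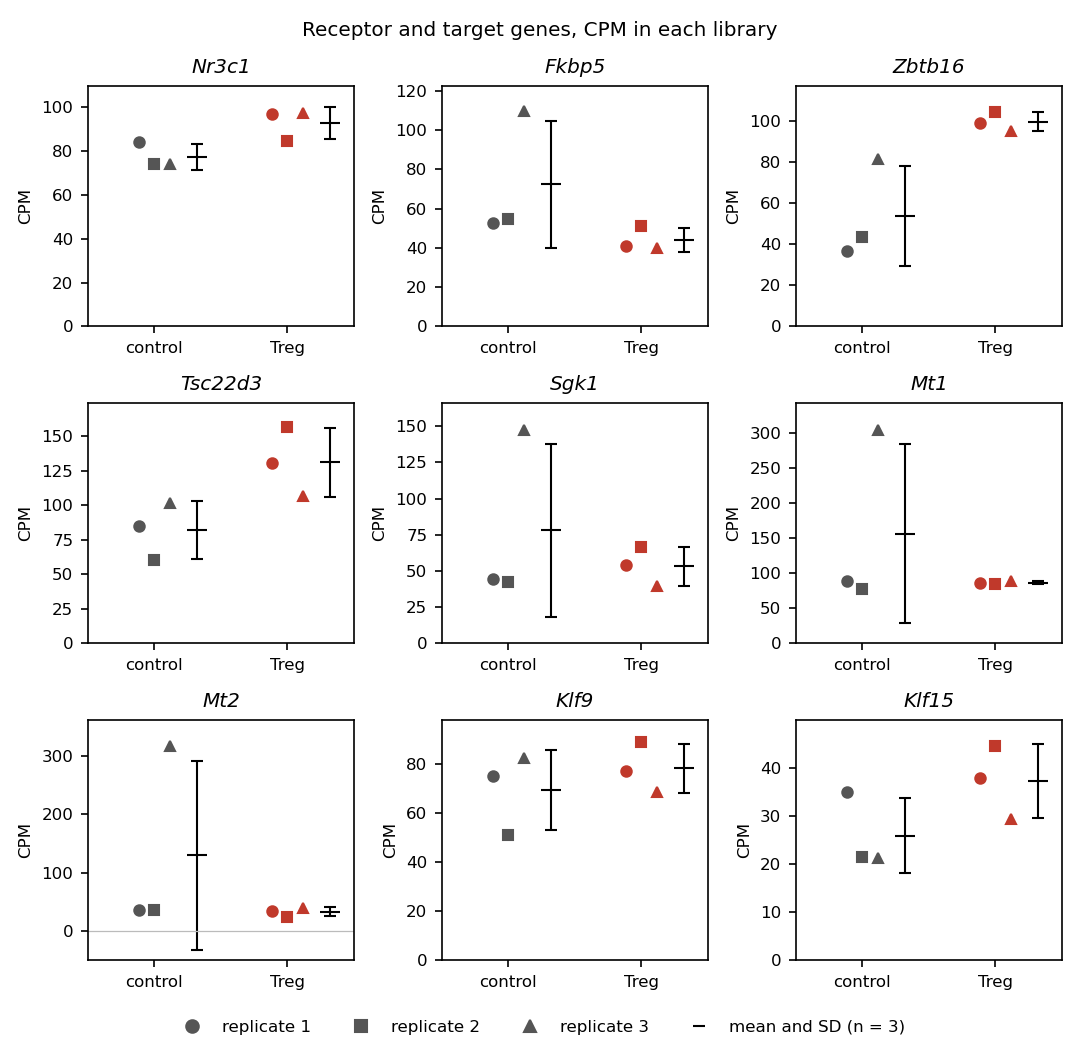
CPM of the 9 genes in each library (vertical axes, each panel on its own scale), with control libraries in grey, Treg libraries in red, the symbol giving the replicate number, and the mean with its SD in black. Control replicate 3 (grey triangle) is highest for Fkbp5, Sgk1, Mt1 and Mt2, while all 3 Treg libraries lie above all controls for Nr3c1, Zbtb16 and Tsc22d3.

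The Krüppel-like factors Klf9 and Klf15, which carry glucocorticoid signals to growth and metabolic genes, overlapped between the groups. Klf9 (chromosome 19, 23141226 to 23168134, plus strand) stood at 74.8, 51.1 and 82.1 CPM in the controls and at 77.1, 88.6 and 68.6 CPM in the Treg libraries, with the single low value in control replicate 2. Its log2 fold change was 0.17 ± 0.20 (edgeR adjusted p = 0.667) and −0.0064 without control replicate 2. Klf15 (chromosome 6, 90462576 to 90475238, plus strand), known as a restraint on cardiac hypertrophy and a driver of amino acid breakdown, stood at 35.0, 21.5 and 21.3 CPM in the controls and at 37.8, 44.5 and 29.3 CPM in the Treg libraries. Control replicate 1 lay above Treg replicate 3. The log2 fold change of Klf15 was 0.52 ± 0.24 (edgeR adjusted p = 0.330), 0.37 to 0.81 over the omissions of each library.

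Among the 8 members other than Zbtb16, 3 had an unadjusted p under 0.05 by edgeR, Tsc22d3 (higher), Fkbp5 and Mt2 (lower), where 16.5% of all genes tested did. DESeq2 gave 2 (against 16.7%) and limma-voom 1 (against 16.3%), and edgeR gave 5 without control replicate 1 (against 22.5%), 1 without Treg replicate 1 (against 7.95%) and 1 without Treg replicate 2 (against 9.56%). With the adjusted threshold of 0.05, 0 of the 8 passed by edgeR, limma-voom or DESeq2 (Mt2 had no adjusted p in DESeq2), against 0.0%, 0.0% and 3.74% of all genes. The groups did not overlap for 3 of the 8 (Nr3c1 and Tsc22d3 with Treg above, Fkbp5 with Treg below), where this held for 25.4% of all genes, 13.7% with Treg above and 11.7% below. Without control replicate 3, 1 of the 8 had an unadjusted p under 0.05, Tsc22d3, against 18.5% of genes (9.74% higher and 8.8% lower), and 0 passed the adjusted threshold, against 1.3%. With that library left out, the groups did not overlap for 3 of the 8, against 37.0% of all genes. With so few genes, nothing particular to the members was read from these counts.

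**Figure D2:**
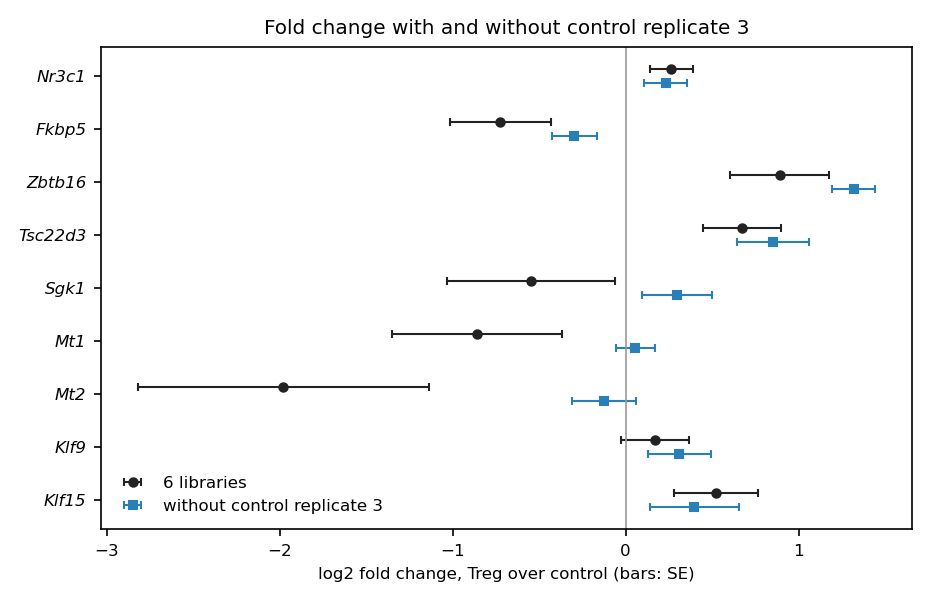
Log2 fold change of Treg over control (horizontal axis, bars are SE) for the 9 genes with all 6 libraries (black circles) and without control replicate 3 (blue squares). Sgk1 and Mt1 move across 0 and Mt2 moves from −1.98 to −0.12, while Zbtb16 and Tsc22d3 lie farther from 0 without that library.

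The members were also compared with each other per length (CPM per kilobase of annotated exon). In the Treg libraries Mt1 was highest at 69.3 ± 1.65, followed by Mt2 at 55.9 ± 12.8, Tsc22d3 at 30.2 ± 5.73 and Zbtb16 at 18.9 ± 0.884 CPM per kilobase, and Fkbp5 was lowest at 4.64 ± 0.642. These 4 leading genes had ranges that did not meet, from Zbtb16 through Klf9, Klf15 and Nr3c1 to Sgk1 each overlapped the next in order, and Fkbp5 lay below Sgk1 without overlap. In the controls Mt2 and Mt1 led at 220.5 ± 276.2 and 125.7 ± 102.3, above Tsc22d3 at 19.0 ± 4.82 CPM per kilobase, and every other pair of neighbours overlapped down to Fkbp5 at 7.66 ± 3.41.

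Fkbp5 and Zbtb16 were both about 2-fold higher in control replicate 3 than in the mean of the other controls (2.04 times for each), so their ratio was steady within the group. Zbtb16 over Fkbp5 was 0.691, 0.793 and 0.743 in the controls and 2.44, 2.06 and 2.39 in the Treg libraries. Tsc22d3 over Fkbp5 was 1.60, 1.10 and 0.929 in the controls and 3.20, 3.07 and 2.66 in the Treg libraries. These ratios were formed after the values were seen. Since Fkbp5 itself was lowest in the Treg libraries, every Treg ratio exceeded every control ratio for 41.5% of all genes set over Fkbp5.

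**Figure D3:**
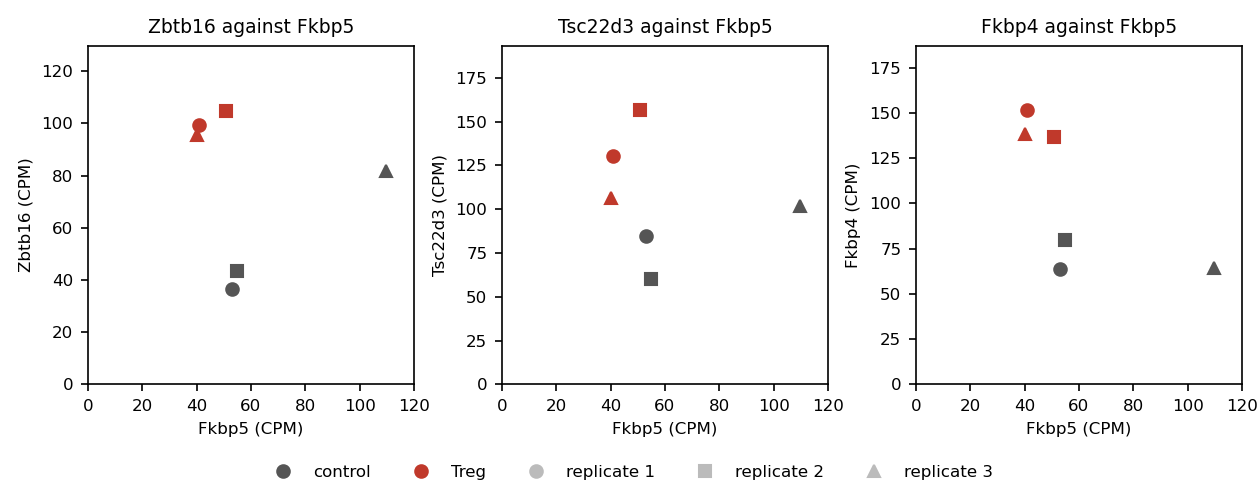
Level of Zbtb16, Tsc22d3 and Fkbp4 (vertical axes, CPM) against that of Fkbp5 (horizontal axis, CPM) in the 6 libraries, with control in grey, Treg in red and the symbol giving the replicate. The Treg libraries sit at the upper left in each panel, at 40.0 to 50.9 CPM of Fkbp5, and control replicate 3 (grey triangle) sits at 109.8 CPM of Fkbp5.

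The genes most like Zbtb16 across the 6 libraries were Chl1 (a neural cell adhesion molecule), Npy1r (a neuropeptide Y receptor), Mme (the peptidase neprilysin), Cadm3 (a cell adhesion molecule), Enpp2 (autotaxin, which makes lysophosphatidic acid) and Hmcn2 (a hemicentin of the matrix). The 12947 genes compared were those averaging 1 CPM or more, and likeness was the root mean square difference of log2 levels centred on each gene's own mean. It was 0.15 to 0.21 log2 units for these 6. Zbtb16 was chosen for its pattern in these same libraries, so likeness to it only describes that pattern and was not tested as shared regulation. Chl1 and Npy1r were low, at 0.456 to 2.31 and 0.421 to 2.06 CPM over the 6 libraries. Mme, for example, stood at 6.28, 8.04 and 12.4 CPM in the controls and at 15.5, 15.9 and 12.3 CPM in the Treg libraries. Tsc22d3 ranked 53 by this measure (0.33 log2 units), Klf9 938 and Nr3c1 1847, whereas Fkbp5 ranked 11347 and Mt2 12852. The members did not share a single profile.

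Other genes described as induced by glucocorticoids also turned on control replicate 3. Of 36 listed, 33 were tested: 14 had a fold change above 0 and 19 below, with a median of −0.047. By edgeR 6 were higher and 3 lower at an unadjusted p under 0.05, against 8.23% and 8.31% of all genes. The adjusted threshold was passed by 0 (3 by DESeq2, against 3.74% of all genes). Control replicate 3 was the highest library for 21 of the 33 (63.6%, against 33.3% of all genes) and lay over 2-fold above every other library for 9 (27.3%, against 2.43%). Pdk4, the kinase that shuts off pyruvate oxidation, stood at 1997 CPM there against 60.9 to 347.2 elsewhere, Angptl4, a lipoprotein lipase inhibitor, at 76.3 against 1.41 to 9.17, and the clock gene Per1 at 160.8 against 38.1 to 78.4. Il1r2, the decoy receptor for interleukin 1, was at 196 counts in control replicate 3 and at 3 to 7 in the other libraries. Without that library the list's median was 0.38, with 12 genes higher and 2 lower at an unadjusted p under 0.05. Over all genes these shares were 9.74% and 8.8%. At the adjusted threshold 0 of the list passed, against 1.3% of all genes. The log2 fold change of Per1 went from −0.22 to 0.67 (edgeR adjusted p = 0.840 and 0.0883) and that of Pdk4 from −1.94 to 1.47 (edgeR adjusted p = 0.472 and 0.346).

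Among the 33 induced genes tested, the groups did not overlap for 6 with Treg above and 3 with Treg below. Over all genes these shares were 13.7% and 11.7%. Bcl6, Pik3r1 and Foxo3, named for their small p, were among those with Treg above and had control replicate 3 near the other controls. Bcl6, a BTB zinc finger repressor related to PLZF, stood at 15.8 ± 3.05 and 29.0 ± 2.66 CPM (0.88 ± 0.17, edgeR adjusted p = 0.120; DESeq2 adjusted p = 0.00123). Pik3r1, the regulatory subunit of PI3 kinase, averaged 82.2 ± 2.44 and 126.7 ± 16.8 CPM (0.62, edgeR adjusted p = 0.145), and Foxo3, a forkhead factor of the atrophy programme, 50.3 ± 11.8 and 83.1 ± 8.54 CPM (0.72, edgeR adjusted p = 0.175). DESeq2 called Pik3r1 and Foxo3 as well (adjusted p = 0.00549 and 0.0297). The muscle ubiquitin ligases Trim63 and Fbxo32, which act downstream of forkhead factors and of Klf15, had −0.31 and 0.59 with overlapping groups (edgeR adjusted p = 0.444 and 0.386), and Dusp1, a phosphatase that silences p38, had 0.092 (edgeR adjusted p = 0.856). Cdkn1a, the cell cycle inhibitor p21, was lower in every Treg library, at 22.1 ± 3.74 against 79.4 ± 76.5 CPM (−1.85, edgeR adjusted p = 0.241; −0.68 without control replicate 3).

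**Figure D4:**
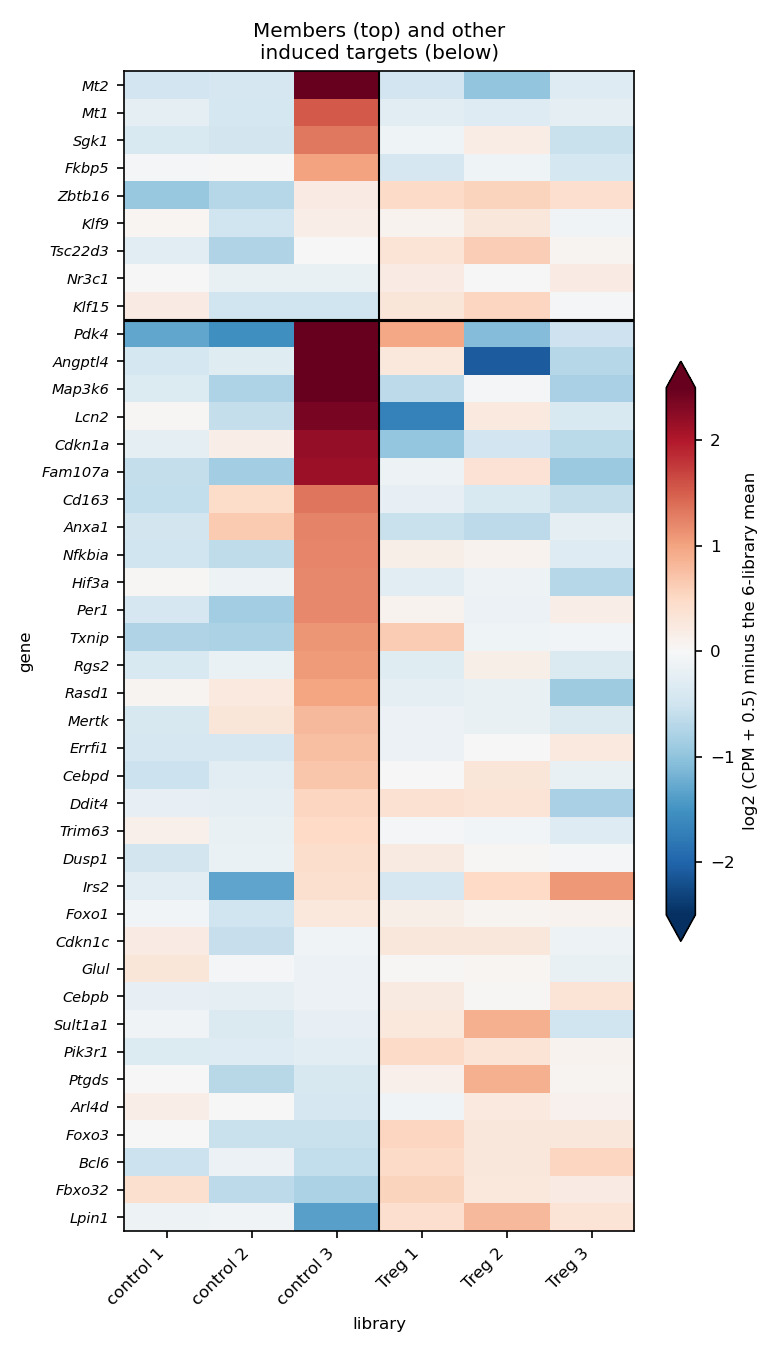
Deviation of each gene's log2 level (pseudocount 0.5 CPM) from its 6-library mean, by library (columns), for the 9 members above the line and 33 other induced targets below it, each block sorted by control replicate 3. Red marks higher and blue lower levels; 21 of the 33 lower genes are highest in control replicate 3, and Bcl6, Foxo3, Pik3r1 and Lpin1 are red in the 3 Treg columns.

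Inflammatory genes that glucocorticoids are known to repress were likewise highest in control replicate 3, in 10 of the 14 tested (71.4%, against 33.3% of all genes). By edgeR 1 was higher and 2 lower at an unadjusted p under 0.05, against 8.23% and 8.31% of all genes. The adjusted threshold was passed by 0 (0 by DESeq2). Without control replicate 3 these counts were 3 higher and 0 lower, against 9.74% and 8.8% of all genes, with 0 past the adjusted threshold. The monocyte chemoattractant Ccl2 averaged 26.7 ± 33.0 CPM in control and 3.81 ± 2.81 in Treg, and the cytokine Il6 2.75 ± 3.17 and 0.583 ± 0.309, with log2 fold changes of −2.81 and −2.23 (edgeR adjusted p = 0.284 and 0.285), and of −1.07 and −0.66 without that library. The list's median was −1.17, and −0.16 without control replicate 3. Nos2, the inducible nitric oxide synthase, was higher in every Treg library (0.70, edgeR adjusted p = 0.257). Induced and repressed targets thus both had high levels in that library, which also had the highest neutrophil marker sum; the part of that sum in these values was not tested.

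A list of genes of amino acid breakdown, the process that Klf15 is known to drive, also held the glucose transporter gene Slc2a4. Of the 18 tested, 17 had a positive log2 fold change (median 0.52), as did 8327 of all 17365 genes tested. Whether Klf15 acts on these genes here was not tested. By edgeR 6 had an unadjusted p under 0.05, all higher, against 8.23% of all genes in that direction. The adjusted threshold was passed by 0 (1, Gpt2, by DESeq2, against 3.74% of all genes). The groups did not overlap for 7, all with Treg above, against 13.7% of all genes in that direction. Gpt2, the mitochondrial alanine aminotransferase, stood at 8.80 ± 3.31 and 20.2 ± 2.33 CPM (1.19 ± 0.28, edgeR adjusted p = 0.160; DESeq2 adjusted p = 0.00628). Bckdhb and Dbt, subunits of the branched-chain ketoacid dehydrogenase, had 0.63 and 0.83 (edgeR adjusted p = 0.209 and 0.219), and Slc2a4, the insulin-regulated glucose transporter, 0.37 (edgeR adjusted p = 0.276). Control replicate 3 was the lowest library for 15 of the 18 (83.3%, against 31.9% of all genes) and had the lowest cardiomyocyte marker sum. Treg replicate 2 was the highest for 17 of the 18 (94.4%, against 15.9% of all genes) and had the highest marker sum, 57629 CPM, and without Treg replicate 2 the median was 0.37. The part of the marker sums in this list was not tested. Without control replicate 3 the median was 0.35 and 4 genes were higher at an unadjusted p under 0.05, against 9.74% of all genes. Gpt2 then passed the adjusted threshold (0.93, edgeR adjusted p = 0.0415), as did 1.3% of all genes.

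Of the other Krüppel-like factors, 12 of 15 were tested, with a median of −0.12 and 2 higher at an unadjusted p under 0.05 (8.23% of all genes). Without control replicate 3 the median was 0.22 and 5 were higher (9.74% of all genes). By edgeR 0 passed the adjusted threshold in either case. Klf12 averaged 3.27 ± 0.293 and 5.12 ± 0.487 CPM (0.65, edgeR adjusted p = 0.200) and Klf2, a flow-responsive endothelial factor, spanned 25.4 to 34.8 CPM in control and 37.2 to 41.1 in Treg (0.43, edgeR adjusted p = 0.247). Of the other BTB zinc finger genes, 16 of 16 were tested, with a median of 0.044. Bcl6 was the single gene at an unadjusted p under 0.05, against 16.5% of all genes. Without control replicate 3 the median was 0.13, with 3 higher and 2 lower, against 18.5% of all genes in either direction. Of 16 genes listed around Sgk1 and sodium transport, 13 were tested, 10 with a fold change above 0 and 3 below (median 0.099). By edgeR 2 were higher and 1 lower at an unadjusted p under 0.05, against 8.23% and 8.31% of all genes. On that list, the sodium pump subunit gene Atp1b1 stood at 430.4 ± 31.3 and 257.8 ± 43.2 CPM (−0.74 ± 0.17, edgeR adjusted p = 0.156, DESeq2 adjusted p = 0.00334). Nedd4l, the ubiquitin ligase that Sgk1 inhibits, had 0.076 (edgeR adjusted p = 0.811). Around the metallothioneins, the metal-sensing factor gene Mtf1 had 0.086 and the zinc exporter gene Slc30a1, itself metal-induced, −0.12 (edgeR adjusted p = 0.752 and 0.721); Slc30a1 stood at 32.4 CPM in control replicate 3 and at 21.8 to 25.4 elsewhere.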

How the data were processed

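Left ventricular RNA was extracted from frozen tissue and sequenced as stranded mRNA libraries, per the labels' protocols. GRCm38, featureCounts 2.0.6, Cuffdiff 2.2.1, HISAT2 2.1.0 and Trimmomatic 0.39 are named in the submitters' processing notes; the sources used here do not give their roles or options or the annotation. For every gene ID the authors deposited estimated counts, not normalized, of which 46.5% to 50.0% of values above 0 in a library are fractional; all 9 members have a fractional value in at least 1 library. The table's 6 further columns match no sample used here and were not used.

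Counts were rounded to the nearest whole number. Symbols matched 47224 of 47729 IDs in GENCODE M21 (GRCm38), which gave coordinates (numbered from 1) and exon lengths. Treg was tested against control with edgeR 4.0.16 in R 4.3.3 (filterByExpr, TMM, robust quasi-likelihood F test, two-sided, no covariates, Benjamini-Hochberg over 17365 genes, threshold 0.05); SE is the size of the log2 fold change over the square root of F. DESeq2 1.42.0, limma-voom (limma 3.58.1), other scalings and filters, a replicate block and omitted libraries were alternatives. Scripts were tested on simulated data. Precision is limited by the 3 libraries a group more than by depth, since every member has at least 632 counts in each library.

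Members and lists were chosen with earlier results of these data known. Named genes were the members, up to 4 genes of smallest p per list, 7 fixed genes and the 6 most like Zbtb16; others (Hsp90aa1, Hsp90ab1, Hsd11b2, Il1r2, Angptl4, Lpin1, Nedd4l, Mtf1, Slc30a1, Cyp11b1, Cyp11b2 and cell markers) were chosen after their values were seen.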

Additional observations from a re-analysis of the deposited data

How the results depend on the processing

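The number of genes past the adjusted threshold was 0 with edgeR (2873 at an unadjusted p under 0.05), 0 with limma-voom and 650 with DESeq2, 38 with no filter on low counts, 119 without control replicate 3 and Treg replicate 3 together, and 0 to 230 when each library was left out, the 230 without control replicate 3. Members other than Zbtb16 at an unadjusted p under 0.05 numbered 3, but 1 with limma-voom and 1 to 5 over the omissions of each library (5 without control replicate 1, and 1 without control replicate 3, Treg replicate 1 or Treg replicate 2). At the adjusted threshold this number was 0 under every alternative run. Members whose groups did not overlap numbered 4, 4 to 6 over the omissions, and 8 without control replicate 3 and Treg replicate 3 together; Zbtb16, chosen for this pattern, is 1 of them each time. The other members numbered 3, 3 to 5 and 7 of 8, against 25.4%, 30.9% to 43.2% and 48.5% of all genes, since non-overlap is more common with fewer libraries. The log2 fold changes of Sgk1 and Mt1 changed sign without control replicate 3 and also without it and Treg replicate 3 together (0.47 and 0.028), and that of Klf9 without control replicate 2. Over the omissions of each library they ranged from −0.84 to 0.30 for Sgk1, −1.17 to 0.055 for Mt1 and −0.0064 to 0.31 for Klf9. The cause of these changes was not tested. No alternative of tool, scaling, filter or pairing changed a member's sign.

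Libraries with the same replicate number did not deviate together (correlations of −0.142, −0.236 and 0.042 between deviations from the group means), and no library correlated best with its own number. With the replicate block, 0 genes passed (2472 at an unadjusted p under 0.05), and 2 members other than Zbtb16 had an unadjusted p under 0.05. The scalings moved the median of all genes by less than 0.1 log2 units. Of 195 list medians under alternatives, 16 moved by more than the spread between libraries. The sources used here do not give how the fractional counts arose, which limits what can be said of close copies.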

Other observations

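Star, Hmox1 and Slc30a4 lie near the steroid and metal pathways of the members. Star, which carries cholesterol into mitochondria for steroid synthesis, stood at 43.1, 35.8 and 9.19 CPM in the controls and at 7.45, 15.4 and 15.4 CPM in the Treg libraries, so control replicates 1 and 2 were high and control replicate 3 lay among the Treg libraries. Its log2 fold change was −1.21 ± 0.54 (edgeR adjusted p = 0.320), and −1.63 without control replicate 3 (edgeR adjusted p = 0.0834). Hmox1, the haem-degrading enzyme induced by oxidative stress, stood at 18.8, 32.9 and 187.9 CPM in the controls and at 12.2, 11.2 and 18.3 CPM in the Treg libraries, every one of them below every control (−2.52 ± 0.82, edgeR adjusted p = 0.235; −0.89 without control replicate 3). Slc30a4, a zinc transporter gene, was also lower in every Treg library, at 22.0 ± 1.81 against 32.2 ± 8.55 CPM (−0.55, edgeR adjusted p = 0.257).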
